A study of Mus musculus with 9 samples.

Results

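The comparison described here set embryoid bodies (EBs) that had received 10 nM retinoic acid (RA) against EBs that had received vehicle, both harvested on day of differentiation (DoD) 8. It was chosen by sample label and rests on 2 of the 9 arrays of the series, the one for 10 nM RA (R8) and the vehicle control (C). All arrays came from 1 mouse embryonic stem cell (mESC) line, written G6B-2 in the sample labels and B6G-2 in the paper, with no genetic change named between groups. Cells were allowed to form EBs without leukemia inhibitory factor from DoD 0, the medium held RA or vehicle between DoD 2 and DoD 6, and RNA was taken 2 days after its removal. The labels name the vehicle as 0.1% ethanol, while the series text names another solvent. Also shown side by side are undifferentiated mESCs, untreated EBs of DoD 2, and DoD 8 EBs after 1 nM RA (R9) or 100 nM RA (R7). The RNA of several biological replicates had been combined before hybridization, as the methods describe for all groups but R9. Each condition was therefore 1 array, so the differences were not checked against replicates and come without p-values.

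RA is a vitamin A derivative that enters the nucleus and binds retinoic acid receptors, which sit on DNA as heterodimers with retinoid X receptors and switch target genes when ligand is bound. In the embryo its level is set by synthesis through retinaldehyde dehydrogenases and breakdown through Cyp26 enzymes, and it patterns the hindbrain and trunk through the *Hox* genes. In cultured mouse stem cells, RA is known to drive both neural differentiation and the formation of extraembryonic endoderm, the outer epithelium of the EB.

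Transcripts were hybridized to Illumina MouseWG-6 BeadChips, and values are given as scaled signal in array units, in which the lowest level a probe can take was set to 5.0 before scaling. Differences between arrays are log2 ratios of scaled signals and do not depend on that choice. A probe counted as detected at an unscaled signal of 29.1 or more. A gene's values and its detection are those of 1 probe, the brightest on average, unless another probe is named. Where a gene was detected on only 1 of the compared arrays, the difference is a bound, written with at least or at most, and a gene detected on neither has no difference. Counts and list medians take each bound at its value, so a gene seen on 1 array alone entered them through the array where it was higher. Of 19403 genes with a probe, 12815 had a difference between R8 and C, 11385 of them detected on both arrays. The C and R8 arrays were alike in depth of detection, with 22428 and 22182 probes detected, and their scale factors were 1.002 and 1.033. As a yardstick of array-to-array spread, the robust SD of R9 against C was taken by signal. This SD was 0.495 at signals of 30.3 to 52.7, 0.577 at 52.7 to 74.2 and 0.15 above 3907.8. It also holds any effect of 1 nM RA. In these bulk samples, fewer cells of a type and less RNA per cell cannot be told apart.

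With R8, 410 genes were at least 2-fold higher than in C (3.2% of the genes with a difference) and 267 were at least 2-fold lower (2.08%). These shares belong beside the list counts below, and in lists this short a count of none does not set a list apart. Some lists share members, so the same gene can enter several counts. Over the genes detected on both arrays the median log2 difference was 0.02, and the middle 90% lay between -0.64 and 0.73. At 4-fold the balance shifted, with 58 genes higher and 11 lower. R9 gave 276 higher (2.17%) and 195 lower (1.53%), with 15 and 4 past 4-fold. R7 gave 724 higher (5.63%) and 446 lower (3.47%), with 201 and 30 past 4-fold. These 3 comparisons share the C array. Most of the 2-fold differences of R8 lay at low signal. In the dimmest of 5 equal groups of genes, at mean signals of 29.8 to 98.2, 5.84% were higher and 3.78% lower, where R9 had 4.65% and 3.6%. In the middle group, at 302.6 to 879.4, R8 had 1.71% higher and 0.703% lower against 0.395% and 0.132% for R9. Counted over all probes rather than 1 probe per gene, 738 were higher and 951 lower, so the share of higher calls was 43.69% instead of 60.56%.

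**Figure D1:**
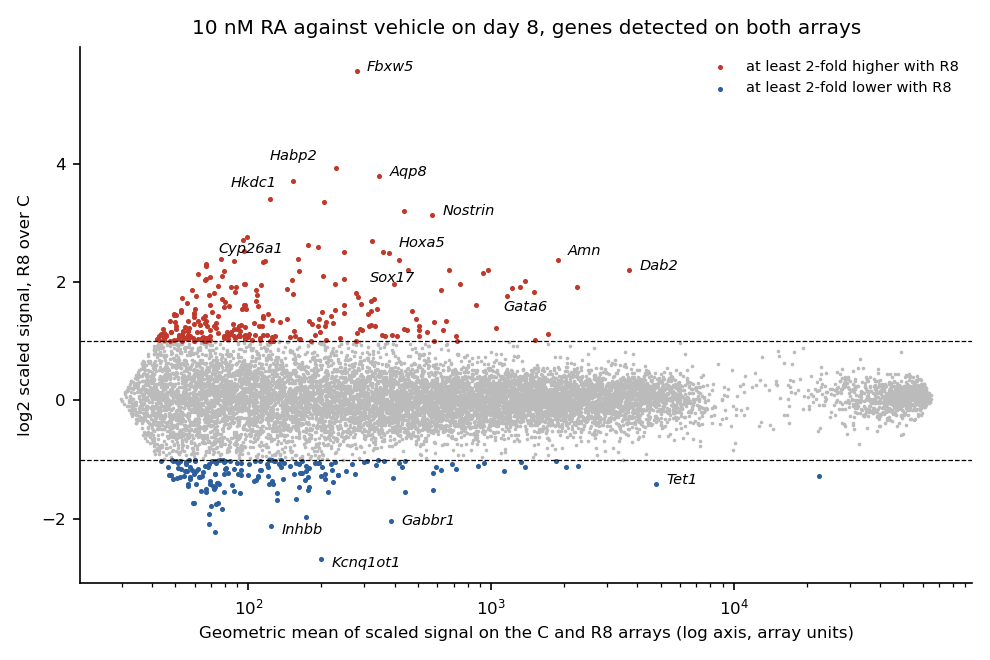
Difference of R8 over C (log2 of scaled signal, vertical axis) against the geometric mean of the signals on the C and R8 arrays (log axis, array units) for the 11385 genes detected on both arrays, each point 1 gene and 1 array a side. The 260 red points and the 176 blue points lie beyond the dashed 2-fold lines, and they thin out as the signal rises.

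The 4 marker genes of the contrast were all higher with R8. They were named with earlier results of these data known, so their shared direction is not an independent result. *Cyp26a1*, the cytochrome P450 that breaks down RA and a direct RA target, had scaled signals of 69.8 in C, 78.8 in R9, 366 in R8 and 352 in R7. Its log2 difference between R8 and C was 2.39, and R8 was 2.22 above R9, so on this probe R9 was near C and R8 near R7. A second *Cyp26a1* probe, not detected in C or R9, was at 63.1 in R8 and 162.0 in R7, at least 1.11 above C in R8 but without the plateau between R8 and R7. *Hoxa5*, a trunk patterning factor, gave 159 in C, 327 in R9, 896 in R8 and 3677 in R7, a log2 difference of 2.49 with each dose above the one below it. *Sox17*, an endoderm transcription factor, gave 182 in C, 389 in R9, 951 in R8 and 975 in R7, and its difference of 2.38 with R8 was close to the 2.42 with R7. *Foxa2*, an endoderm and floor plate factor, gave 18.4 in C, 72.1 in R9, 168 in R8 and 191 in R7, with C below the detection level, and its difference was at least 2.52. Each of the 4 had lower signals on the mESC array than on the DoD 2 array, and *Cyp26a1* was already at 316 on DoD 2, before RA was added.

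**Figure D2:**
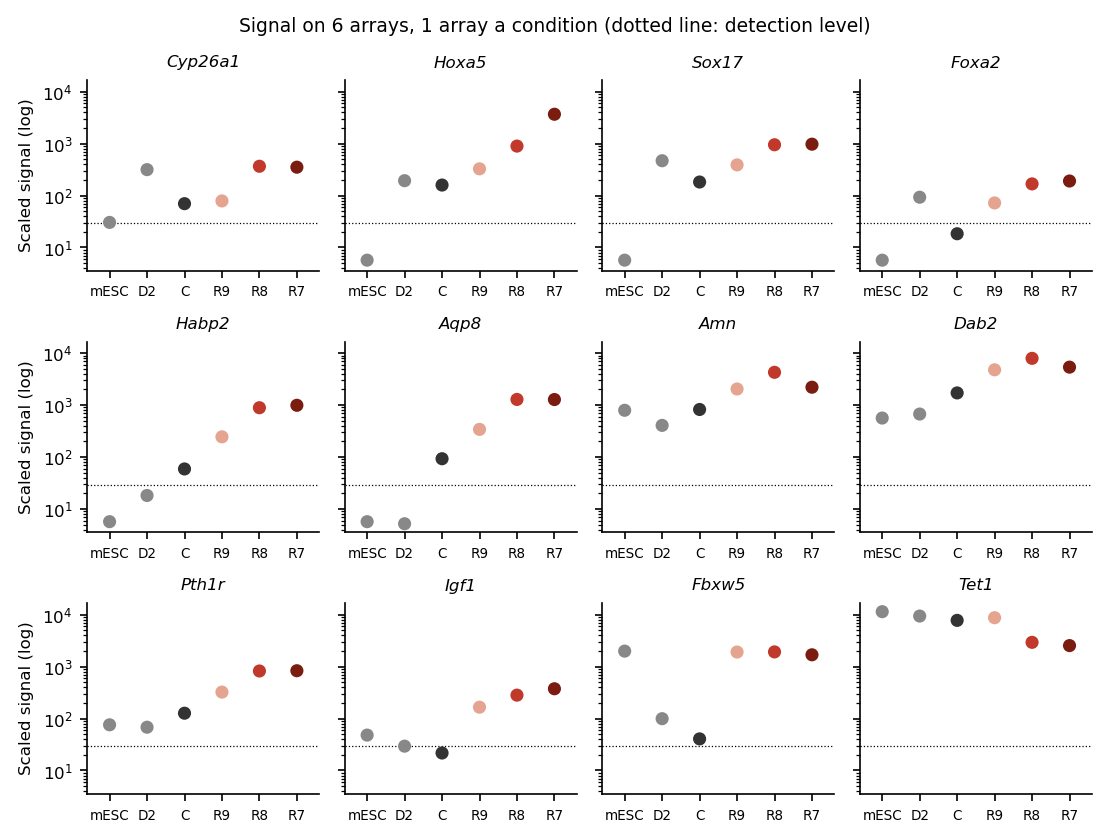
Scaled signal (log axis, array units) of 12 genes on 6 arrays, 1 array a condition and 1 point an array: mESC, DoD 2 EBs (D2), and DoD 8 EBs after vehicle (C), 1 nM (R9), 10 nM (R8) or 100 nM RA (R7), with a dotted line at the detection level of 29.1, which applies before scaling. *Cyp26a1* was near its C level in R9 and higher in R8, whereas *Fbxw5* was low only on the D2 and C arrays and *Tet1* was lower in R8 and R7.

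The promoter of *Cyp26a1* is shown because it carries the arrangement that RA receptors are known to bind, a direct repeat of a short hexamer, and that of *Hoxa5* because the gene was as much higher without such a repeat in the same window. Windows run from 250 bases before to 50 after the RefSeq start site in the build GRCm38.p6, at chr19:37697558-37697857 on the plus strand for *Cyp26a1* and chr6:52204538-52204837 on the minus strand for *Hoxa5*. Capitals mark the direct repeat in *Cyp26a1* and a single hexamer in *Hoxa5*.
Cyp26a1: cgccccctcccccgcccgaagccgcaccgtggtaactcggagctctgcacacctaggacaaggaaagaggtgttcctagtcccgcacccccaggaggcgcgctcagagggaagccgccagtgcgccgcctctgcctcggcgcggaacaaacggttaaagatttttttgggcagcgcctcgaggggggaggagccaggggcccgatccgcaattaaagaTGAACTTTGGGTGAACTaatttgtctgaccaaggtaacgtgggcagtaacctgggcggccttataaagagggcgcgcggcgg
Hoxa5: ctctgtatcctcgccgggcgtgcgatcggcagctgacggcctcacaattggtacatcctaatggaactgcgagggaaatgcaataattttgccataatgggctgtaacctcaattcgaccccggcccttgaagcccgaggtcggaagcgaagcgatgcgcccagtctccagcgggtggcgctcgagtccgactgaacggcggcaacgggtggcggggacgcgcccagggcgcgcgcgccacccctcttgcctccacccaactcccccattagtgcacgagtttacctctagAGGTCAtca
The hexamers searched, on both strands, were AGGTCA and AGTTCA together with GGGTCA and GGTTCA, and repeats were taken at a spacing of 1, 2 or 5 bases. In *Cyp26a1* a single repeat with spacing 5 was found on the strand opposite to the gene, with its first base 32 bases before the start site (-32). Of 27025 genes with a window, 31 (0.115%) held a repeat with spacing 5 and 186 (0.688%) any of the 3 repeats, while 46.9% held at least a single hexamer. Among genes at least 2-fold higher with R8, 303 had a window and 3 held a repeat (0.99%). These were *Cyp26a1*, *Enkd1* with spacing 1 and *Spata9* with spacing 2. Among genes at least 2-fold lower, 2 of 210 did (0.952%), and among all genes with a difference 39 of 10340 (0.377%). A match is a description of the letters in the window and not evidence of binding, and most of the genes higher with R8 held none.

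Genes that make, break down or carry RA were mixed. Of 22 with a probe, 18 had a difference, 5 were at least 2-fold higher and 1 lower, and the median was 0.20 against 0.03 over all genes with a difference. The 5 include *Cyp26a1*, a marker of the contrast. Besides *Cyp26a1*, the higher members were *Stra6*, the cell surface receptor that takes up retinol from its carrier, *Crabp1*, a cytosolic RA-binding protein, *Ttr*, which carries retinol-binding protein in plasma, and *Rdh12*, a retinal reductase. *Stra6* gave 25.9 in C, 42.4 in R9, 139.9 in R8 and 411 in R7, undetected in C and graded over the doses, with a difference of at least 2.26. *Crabp1* gave 179 in C, 492 in R9, 576 in R8 and 464 in R7, and its 1.68 with R8 lay beside 1.46 with R9, so it was already high at the lowest dose. *Ttr* had the same shape, 299 in C, 613 in R9, 680.2 in R8 and 645 in R7. *Lrat*, which stores retinol as esters, was the lower member, at most -1.29, from 73.5 in C to 9.0 in R8. *Cyp26b1*, a second RA-degrading enzyme, was level between C and R8, with 969 in C, 685 in R9, 902 in R8 and 1053 in R7. *Aldh1a2*, the main RA-synthesizing enzyme of the early embryo, was at 20.4 in C and 27.3 in R8, below detection on both, while R9 and R7 were at 104 and 108.

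None of the 8 RA receptors and co-regulators with a difference passed 2-fold, and their median was -0.25. *Rarb*, the receptor gene best known as an RA target, gave 338 in C, 107 in R9, 239 in R8 and 571 in R7, a difference of -0.50 with R8 and -1.66 with R9, so both lower doses lay below C. *Rarg* gave 565 in C, 579 in R9, 417 in R8 and 278 in R7. *Rxrb*, a retinoid X receptor, gave 2872 in C, 3545 in R9, 4374 in R8 and 3670.2 in R7. The other *Rxrb* probes were at -0.22 and -0.11 with R8. *Rara* was undetected on both arrays. Of 18 known RA target genes with a difference, 3 were at least 2-fold higher, *Cyp26a1*, *Stra6* and *Foxa2*, none was lower, and the median was 0.24. *Cyp26a1* and *Foxa2* are markers of the contrast, and *Stra6* and *Foxa2* entered at their bounds. All 3 also count in other lists, *Cyp26a1* and *Stra6* in the list above and *Foxa2* among the endoderm factors below. *Crabp2*, a second RA-binding protein that delivers RA to its receptors, was at 0.80 with R8 and 1.83 with R7. *Dhrs3*, a retinal reductase and RA target, gave no settled direction. The probe used was below detection in C and R8, at 5.0 and 15.6, and at 44.9 in R7, whereas a second probe was at 36.3 in C, 38.7 in R8 and 4.7 in R7.

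The *Hox* genes, which set position along the trunk and lie in 4 clusters, held 8 members at least 2-fold higher and 1 lower among 24 with a difference, of 38 with a probe, with a median of 0.53. The number detected was 17 in C, 20 in R9, 23 in R8 and 26 in R7. *Hoxb5* had the largest bound of all genes, at least 4.45, with signals of 10.6 in C, 87.4 in R9, 638 in R8 and 2135 in R7, so it crossed the detection level between C and R9 and was higher at each dose than at the one below. *Hoxb2*, a hindbrain member, gave 181 in C, 365 in R9, 596 in R8 and 1962 in R7, a difference of 1.72. Among the more posterior paralogs, *Hoxc8* gave 38.4 in C, 56.0 in R9, 197 in R8 and 1490.4 in R7. *Hoxc6* gave 134 in C, 135 in R9, 387 in R8 and 1708 in R7. Their differences were 0.54 and 0.01 with R9 and 2.36 and 1.53 with R8. The second *Hoxc8* probe was at -0.39 with R8, against the direction of the first, and a second *Hoxc6* probe was at 0.19 with R8 and -0.12 with R7. The other higher members, *Hoxa7*, *Hoxb7* and *Hoxd9*, were at 1.35, 1.42 and 1.72. *Hoxa5*, also counted among the higher members, is a marker of the contrast. *Hoxc13*, at the end of its cluster, was the lower one at -1.24, on 91.8 in C and 38.8 in R8, and its R7 signal was 69.8. *Hoxb1*, an early hindbrain gene, was at 0.16. *Hoxa3* and *Hoxa4* lay below detection in both C and R8, though *Hoxa4* reached 220.1 in R7. Paralogs 1 to 5 had a median of 0.55 with R8 and 0.95 with R9, and paralogs 6 to 13 had 0.49 and -0.05. The R8 medians cover 10 and 14 genes and the R9 medians 9 and 12, bounds included, so they are not over the same genes. Summed signals of paralogs 1 to 5 were 950 in C, 1570 in R9 and 3059 in R8. Their R8 median ran from 0.51 to 1.71 over the processing alternatives. The difference between these groups of paralogs was not tested. Their cofactors of the Meis and Pbx families and the Cdx factors held none of 10 past 2-fold, with a median of 0.00.

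**Figure D3:**
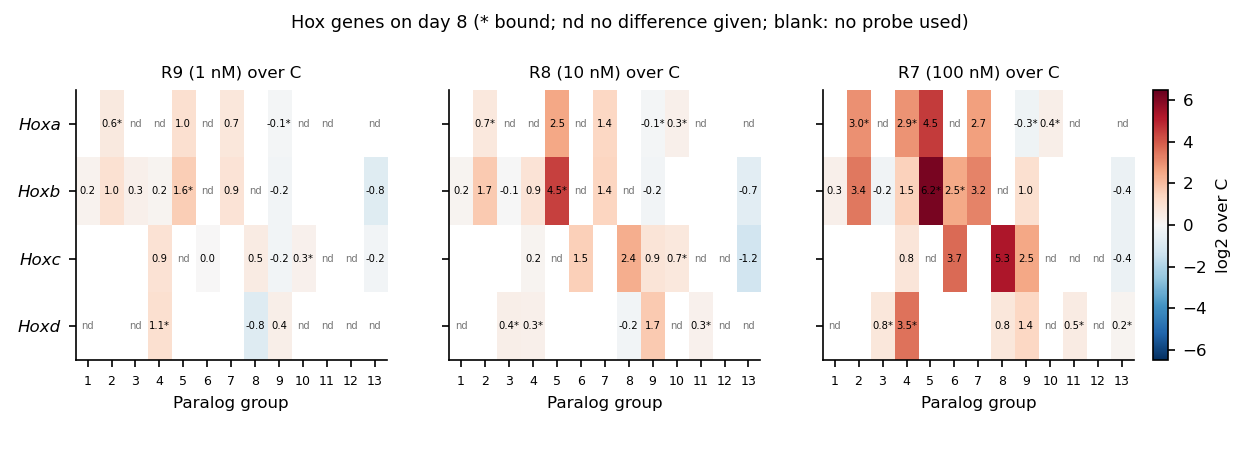
Log2 difference over C of each *Hox* gene (rows, the 4 clusters; columns, paralog groups 1 to 13) for R9, R8 and R7, 1 array a condition, with an asterisk for a bound and nd where no difference is given. In R8 the darkest cells are *Hoxb5* (at least 4.45), *Hoxa5* (2.49) and *Hoxc8* (2.36), and the red area is wider in R7 than in R8.

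Endoderm transcription factors, which set up the primitive endoderm of the embryo and later the gut, had the highest median of the 39 gene lists, 1.52 over 10 genes with a difference, with 6 at least 2-fold higher and none lower. Over the processing alternatives the median ran from 1.17 to 1.75, and that of *Hox* paralogs 1 to 5 from 0.51 to 1.71. With R9 the endoderm median was 0.90 with 3 higher. With R7 it was 1.57, below the 2.92 of *Hox* paralogs 1 to 5. Besides *Sox17* and *Foxa2* the higher members were *Sox7*, *Gata6*, *Gata4* and *Hnf4a*. *Sox17* and *Foxa2* are markers of the contrast, and *Foxa2* entered at its bound, so the count and the median rest in part on them. The yardstick SD was 0.299 for *Sox17* and 0.577 for *Foxa2*. *Gata6*, which drives primitive endoderm, gave 629 in C, 1163 in R9, 2345 in R8 and 2952 in R7, a difference of 1.90 at a signal where the yardstick SD was 0.212. *Sox7*, its partner in primitive and parietal endoderm, gave 97.4 in C, 184 in R9, 419.8 in R8 and 484 in R7. *Gata4* gave 326 in C, 886 in R9, 1185 in R8 and 938 in R7, highest in R8. *Hnf4a*, a visceral endoderm and liver factor, gave 102 in C, 109 in R9, 231 in R8 and 172 in R7. *Hhex* and *Foxa3* were at 0.40 and 0.49, and *Pdx1*, the pancreas factor, was undetected in R8.

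Visceral endoderm takes up maternal protein by endocytosis and secretes plasma carriers. Of 21 genes of its uptake and carrier proteins with a difference, 8 were at least 2-fold higher and none lower, with a median of 0.54, 0.28 with R9. *Cubn*, the receptor cubilin, gave 22.2 in C, 179.8 in R9, 183 in R8 and 228 in R7, undetected in C and level over the 3 doses, with a difference of at least 2.65. *Amn*, amnionless, the partner that brings cubilin to the membrane, gave 824 in C, 2043 in R9, 4280.2 in R8 and 2211 in R7. *Dab2*, their clathrin adaptor, gave 1716 in C, 4782 in R9, 7953 in R8 and 5384 in R7. On these probes both had their highest DoD 8 signal in R8, which was 0.95 and 0.56 above R7 on the log2 scale. For *Amn* the yardstick SD was 0.18, and for the dimmer *Cubn* 0.577. The second *Dab2* probe was at 0.42 over C, with 124 in R9, 122.5 in R8 and 143 in R7, so it was not highest in R8. The third receptor of this system, *Lrp2* or megalin, gave 866 in C, 1453 in R9, 716 in R8 and 1073 in R7, with R8 below C. *Ihh*, the hedgehog ligand of visceral endoderm, gave 30.1 in C, 22.6 in R9, 148 in R8 and 139.9 in R7, a difference of 2.30 from a C signal at the detection level. *Apom*, an apolipoprotein that binds lipids in plasma, was also highest in R8, with 201 in C, 297 in R9, 784 in R8 and 374 in R7. *Mttp*, which loads lipid onto apolipoproteins, gave 78.4 in C, 88.1 in R9, 201 in R8 and 188 in R7. *Cited1* and *Ttr* were both at 1.19. Unlike *Ttr*, *Apom* and *Ihh*, other secreted products of the list were not past 2-fold. *Afp*, alpha-fetoprotein, was at 0.26, *Apoa1* at 0.17 and *Apoe* at 0.18, and *Alb* and the fibrinogen genes *Fga*, *Fgb* and *Fgg* were undetected in C and R8. The signals of the list summed to 45709 in C, 55544 in R9, 71117 in R8 and 53119 in R7.

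Parietal endoderm and basement membrane genes held 4 of 15 at least 2-fold higher and none lower, with a median of 0.50. *Pth1r*, the receptor of parathyroid hormone-related protein that parietal endoderm carries, gave 127 in C, 323 in R9, 824 in R8 and 833 in R7, a difference of 2.70, and its second probe 3.11. *Pdgfra*, a receptor of primitive endoderm and mesenchyme, gave 212 in C, 521 in R9, 969.9 in R8 and 1323 in R7. *Fst*, the activin antagonist follistatin, gave 121 in C, 176 in R9, 506 in R8 and 803 in R7. The second *Pdgfra* probe was at 0.90. *Plat*, tissue plasminogen activator, gave 305 in C, 391 in R9, 790.3 in R8 and 2113 in R7. The matrix proteins differed less, with *Col4a1*, *Col4a2* and *Lamc1* at 0.51, 0.46 and 0.58. *Thbd*, thrombomodulin, a parietal endoderm and trophoblast marker, was at -0.49. The list's signals summed to 54094 in C, 57110.4 in R9, 67318 in R8 and 78874 in R7. Of the other epithelia an EB could hold, simple epithelium had none of 15 past 2-fold and a median of -0.13, with *Krt8* and *Krt18*, its keratins, at -0.26 and -0.22, and the trophoblast list had 1 of 12, *Elf5*, lower at -1.32, and a median of -0.04.

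**Figure D4:**
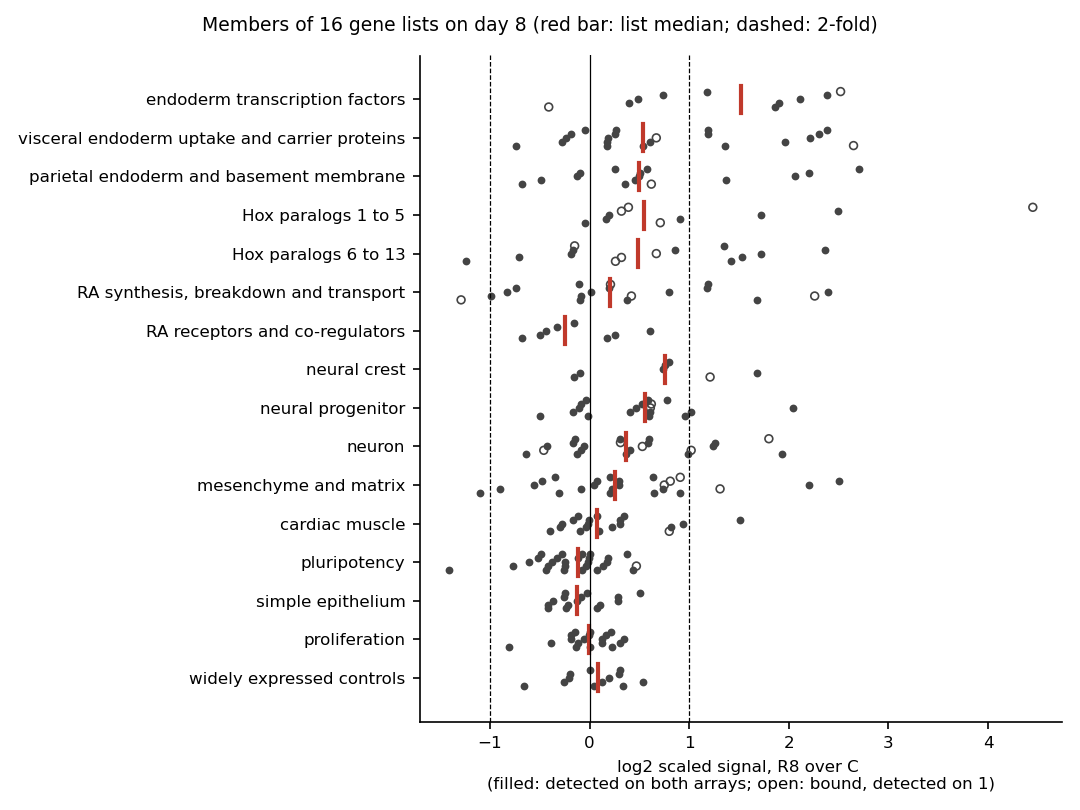
Log2 difference of R8 over C for the members of 16 gene lists, 1 point a gene and 1 array a side, filled where detected on both arrays and open where the value is a bound; red bars are list medians and dashed lines mark 2-fold. The endoderm transcription factors have their median at 1.52, while pluripotency, simple epithelium, proliferation and control genes gather around 0.

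Of the 15 genes with the largest increases, the first, *Fbxw5*, a ubiquitin ligase subunit, gave 40.6 in C, 1908 in R9, 1920.4 in R8 and 1689 in R7, and 1987 and 99.4 on the mESC and DoD 2 arrays. It has 1 probe, and its differences of 5.56 with R8, 5.55 with R9 and 5.38 with R7 go with a low C signal, the signals of the 3 doses being alike. *Habp2*, a plasma serine protease, came next with 59.0 in C, 245 in R9, 891 in R8 and 992 in R7, a difference of 3.92. *Aqp8*, a water channel, gave 92.8 in C, 341 in R9, 1286 in R8 and 1280.2 in R7. *Hkdc1*, a hexokinase relative, gave 42.2 in C, 204 in R9, 551 in R8 and 561 in R7. For these 3 genes R9 lay between C and R8, and R8 and R7 were alike. *Klb*, beta-Klotho, the co-receptor of endocrine FGFs, gave 64.1 in C, 337 in R9, 656 in R8 and 532 in R7. *Bmper*, a secreted BMP regulator, gave 37.7 in C, 109 in R9, 401 in R8 and 523 in R7. *Srgn*, the proteoglycan serglycin, gave 145 in C, 429 in R9, 1329 in R8 and 1033 in R7, with the second probe at 3.91. *Nostrin*, an endothelial nitric oxide synthase trafficking protein, gave 193 in C, 955 in R9, 1692 in R8 and 1501 in R7. All 8 of these, from *Fbxw5* to *Nostrin*, were at least 8-fold higher. Of the 7 remaining, *Tril*, *Mfap4* and *Ebf3* were at least 2-fold higher again in R7 than in R8. *Tril*, a toll-like receptor accessory protein, gave 71.1 in C, 174 in R9, 438 in R8 and 2351 in R7. *Mfap4*, a microfibril protein, gave 37.3 in C, 187 in R9, 244 in R8 and 1018 in R7. *Ebf3*, a transcription factor of neurons and mesenchyme, gave 38.0 in C, 189 in R9, 258 in R8 and 663 in R7. *Cemip*, which degrades hyaluronan, *Vcam1*, an adhesion molecule, and *Dram1*, a lysosomal membrane protein, were at 2.59, 2.52 and 2.51. The second *Cemip* probe was at 0.21, and a second *Vcam1* probe at least 0.15. Of the genes whose probe was not detected in C, *Igf1*, the growth factor, gave 21.7 in C, 165 in R9, 282 in R8 and 375 in R7, a difference of at least 3.27, and at least 3.06 on its second probe. *Pla2g12b*, a phospholipase family member, *Ugt1a6b*, a glucuronosyltransferase, and *Rnase4*, a secreted ribonuclease, had differences of at least 2.93, at least 2.72 and at least 2.70, though the second *Rnase4* probe was detected in C and was at 0.13.

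Mesenchyme and matrix had 3 of 24 at least 2-fold higher and 1 lower, with a median of 0.26. *Dcn*, the proteoglycan decorin, gave 151 in C, 559 in R9, 850.0 in R8 and 3419 in R7, a difference of 2.50, and its second probe 2.88. *Lum*, the related lumican, was at the lowest level in C and R9 and at 72.2 in R8 and 311 in R7. *Fn1*, fibronectin, was lower, 3333 in C, 2799 in R9, 1559.6 in R8 and 3111 in R7, with R9 and R7 close to C. Of its 3 other probes, 2 were at -1.07 and the dimmest at 0.76. *Col1a1* and *Tgfbi*, matrix genes, were at -0.56 and -0.35 in R8 and at 1.06 and 1.17 in R7. Among smooth muscle genes 2 of 11 were higher. *Actg2*, enteric actin, gave 1161 in C, 1761 in R9, 4376 in R8 and 11156 in R7. *Myh11*, smooth muscle myosin, gave 5.8 in C, 22.9 in R9, 84.4 in R8 and 876 in R7. The cardiac list had 1 of 19 higher, *Myl3*, a myosin light chain, with 279.5 in C, 372 in R9, 799 in R8 and 708 in R7, and a median of 0.07. *Nkx2-5* and *Tbx5*, heart factors, were at -0.30 and -0.01. Of 14 streak and mesoderm genes, *Lhx1* and *Meox1* were higher and *Wnt3a* lower. *Lhx1*, a factor of organizer and intermediate mesoderm, gave 5.0 in C, 106 in R9, 122 in R8 and 414 in R7 after 2089 on DoD 2. *Mixl1*, *Mesp1* and *Fgf8* were undetected on both arrays. Endothelium and blood had none past 2-fold among 11 and 7 genes, with medians of -0.17 and 0.15, and the hemoglobin genes *Hbb-bh1*, *Hbb-y* and *Hba-x* were undetected. Over the processing alternatives these medians ran from -0.22 to 0.21 and from -0.2 to 0.2.

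The 6 neural lists had medians of 0.11 to 0.76 against 0.03 over all genes with a difference, and most of their members differed by less than 2-fold. With R9 the medians of these lists were 0.19 to 0.47 against 0.05, so a lean of this kind was not particular to R8. Of 18 neural progenitor genes, 2 were higher and none lower, with a median of 0.56. Over the processing alternatives it ran from 0.17 to 0.6. *Zic1*, a dorsal neural factor, gave 74.5 in C, 143 in R9, 306 in R8 and 689 in R7, graded over the doses. *Pax6*, a neural and eye factor, gave 146 in C, 227 in R9, 296 in R8 and 385 in R7. *Sox1*, the early neural plate marker, was undetected in C and R8. *Sox2* and *Nes* were at -0.04 and -0.11. Of 21 neuron genes, 5 were higher and none lower, with a median of 0.37, beside 0.38 and 4 higher with R9. At a detection level of 100 the R8 median of these genes was -0.01. *Dcx*, a microtubule protein of young neurons, gave 38.4 in C, 113 in R9, 146 in R8 and 723 in R7. *Snap25*, of the synaptic release machinery, gave 43.7 in C, 102 in R9, 104 in R8 and 321 in R7. *Nefm*, a neurofilament, gave 35.6 in C, 129 in R9, 83.9 in R8 and 164 in R7. For *Snap25* R9 and R8 were alike and for *Nefm* R9 was above R8, and both genes were highest in R7. A second *Snap25* probe was at 0.17 with R8. *Slc17a6*, a vesicular glutamate transporter, was undetected in C and reached 102 in R8, and *Rbfox3*, the NeuN antigen, was undetected in C, at 59.0 in R8 and at 166 in R7. *Tubb3* and *Map2*, used as neuronal markers in the study, were at 0.41 and at least 0.53, and *Gfap*, the astrocyte filament, was undetected on both arrays. The *Map2* bound rests on a signal of 42.0 in R8, near the detection level. Most of the 9 *Map2* probes were undetected in both C and R8. The summed neuron signal was 6259 in C, 7380.2 in R9, 5989.6 in R8 and 10128 in R7, with *Mapt*, *Dpysl3* and *Stmn2*, all bright on the mESC array too, as its brightest members in C. Of 7 neural crest genes, *Msx1* and *Crabp1* were higher, with a median of 0.76. The forebrain and midbrain list and the hindbrain and spinal cord list each had none of 9 past 2-fold, with medians of 0.40 and 0.46. Above 0 were 6 of 9 genes in the first list and 7 of 9 in the second. *Otx2*, the anterior factor, at -0.54, and *Phox2a*, of the hindbrain, at -0.63, went against the direction of their lists. *Gbx2*, also of the hindbrain, was at 0.35. Astrocyte and oligodendrocyte genes had none of 9 past 2-fold and a median of 0.11.

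Of 27 pluripotency genes with a difference, 1 was at least 2-fold lower and none higher, with a median of -0.12 with R8, 0.15 with R9 and -0.87 with R7. The lower gene was *Tet1*, the enzyme that oxidizes 5-methylcytosine, with 7766 in C, 8742 in R9, 2932 in R8 and 2540.2 in R7, a difference of -1.41 at a yardstick SD of 0.15. R9 was at or above C for this gene and R8 was near R7. *Pou5f1*, the core pluripotency factor Oct4, gave 14829.6 in C, 16888 in R9, 10958 in R8 and 6599.9 in R7. *Nanog* gave 16346 in C, 16804 in R9, 12191 in R8 and 8084 in R7. *Klf4* gave 1184 in C, 1086 in R9, 775 in R8 and 499 in R7. On these probes R8 was below C by less than 2-fold and R7 was lowest. The second *Pou5f1* probe was at -0.28 with R8, but 2 other *Nanog* probes were at 0.20 and 0.10, with R7 at -1.07 and -1.19. *Sall4* was at -0.77 and *Zfp42* at 0.38. Among 8 epiblast genes *Fgf5* was higher, 30.5 in C, 159 in R9, 112 in R8 and 51.3 in R7, with its highest DoD 8 signal in R9, after 979.6 on DoD 2. Germ line and 2-cell-stage genes had none of 8 past 2-fold. *Stra8*, a germ cell gene named for its stimulation by RA, gave 358 in C, 264 in R9, 362 in R8 and 494 in R7.

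Counts past 2-fold in the signaling lists stand beside 3.2% higher and 2.08% lower over all genes with a difference. In the Nodal and BMP list 2 of 19 were higher, *Fst* and *Chrd*, which bind activin and BMP, with 243 in C, 242 in R9, 519 in R8 and 593 in R7 for *Chrd*. *Nodal*, *Lefty1* and *Bmp4* were at -0.40, 0.67 and -0.24. In the Wnt list *Sp5*, a target of the pathway, and *Sfrp2*, a secreted antagonist, were higher and *Wnt3a* lower, of 17, with a median of 0.48. *Sp5* gave 125 in C, 149 in R9, 299 in R8 and 449.5 in R7. *Sfrp2* gave 35.2 in C, 102 in R9, 102 in R8 and 70.6 in R7. In the FGF list *Fgf5* was higher and *Spred2*, a brake on ERK signaling, lower at -1.05, of 18, and the Notch list had none of 12 past 2-fold.

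Lists of general cell processes held few genes past 2-fold. At the shares over all genes, 3.2% higher and 2.08% lower, lists of this size would mostly hold few. None passed 2-fold among 18 proliferation, 19 glycolysis and hypoxia, 17 stress and RNA quality genes and 12 widely expressed controls, with medians of -0.01, 0.09, 0.05 and 0.08. *Gapdh* and *Actb*, the usual reference genes, were at 0.00 and 0.12. *Insig1*, a sterol sensor partner, was the 1 cholesterol gene of 10 past 2-fold, with 410.0 in C, 686 in R9, 1044 in R8 and 559.7 in R7, highest in R8. *Nnat*, neuronatin, was the 1 imprinted gene of 15, with 155 in C, 206 in R9, 515 in R8 and 608 in R7, though its second probe was at 0.27. In the 3 gene sets that the study built, set 1 and set 2 had none of 11 and 15 past 2-fold, with medians of -0.09 and -0.11. Set 3 had *Gnao1*, a neuronal G protein subunit, higher by at least 1.40 and *Ywhah*, a 14-3-3 protein, lower, at most -1.05, of 13. The study chose sets 2 and 3 partly by expression pattern on these arrays, so their counts are not independent of them.

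The largest decreases were smaller than the largest increases, and many were seen with 1 probe of several. *Kcnq1ot1*, a noncoding RNA of an imprinted locus, led them with 506 in C, 303 in R9, 78.7 in R8 and 189 in R7, a difference of -2.68, and was lower in R8 than in R7. *Inhbb*, which encodes the activin B subunit, gave 259 in C, 185 in R9, 59.5 in R8 and 26.1 in R7, lower at each dose than at the one below. *Gabbr1*, a GABA-B receptor subunit, gave 782 in C, 744 in R9, 192 in R8 and 178 in R7, but its second probe was at -0.06. *Chka*, choline kinase, gave 340.2 in C, 314 in R9, 87.1 in R8 and 75.1 in R7 with a second probe at -0.66. *Vezt*, a junction protein, was at -2.22 with a second probe at -0.18. *Cers6*, a ceramide synthase, was at -2.09 with a second probe at least 0.93 higher. *Mindy3*, a deubiquitinase, was at -1.92 with a second probe at 0.55, and *Snrnp48*, of the minor spliceosome, at -1.67 with a second probe at 0.24. Another *Snrnp48* probe was at most -1.37. All detected probes were lower for *Sf3b6*, a splicing factor subunit, at -1.73 and -0.81, and for *Chka*, whose remaining detected probe was at -0.61. Another *Cdk12* probe was at most -1.28. The other measured decreases were *Cfap52* of cilia, *Timeless* of replication forks, the transcription factor *Rfx7*, the adenylyl cyclase *Adcy9*, the secretory kinase *Fam20c* and the Golgi protein *Golgb1*, between -1.83 and -1.68. For *Fam20c* the R9 and R7 signals were both 115, near the 109 of C. Among genes undetected in R8, *Malat1*, an abundant nuclear noncoding RNA, gave 154 in C, 113 in R9, 11.6 in R8 and 14.8 in R7 on the probe used, and *Tut4*, *Cdk12*, *Pou5f2* and *Gm9881* had differences of at most -2.37, at most -2.30, at most -2.16 and at most -2.03.

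A property of the probes moved with these decreases and was seen after the values. Of the 46643 probes, 22030 have 9-digit identifiers and the others fewer digits. The sources used here do not say what the numbering stands for. With R8, 6.64% of the 9-digit probes with a difference were at least 2-fold lower and 2.16% higher, against 2.31% lower and 3.58% higher for probes with fewer digits. At mean signals of 100 to 200 these were 8.58% and 1.85% against 3.22% and 3.6%. R7 had the same lean, with 6.65% of 9-digit probes lower against 4.03%, and R9 had 1.41% against 1.88%. Medians of the 9-digit and other probes were 0.00 and 0.03 with R8. Of the 20 largest decreases named, bounds included, 14 were read on 9-digit probes, and of the 20 largest increases 2. Over genes, 96 of 2802 on 9-digit probes were lower (3.43%) against 171 of 10013 on the others (1.71%). The part of this property in the decreases was not tested.

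**Figure D5:**
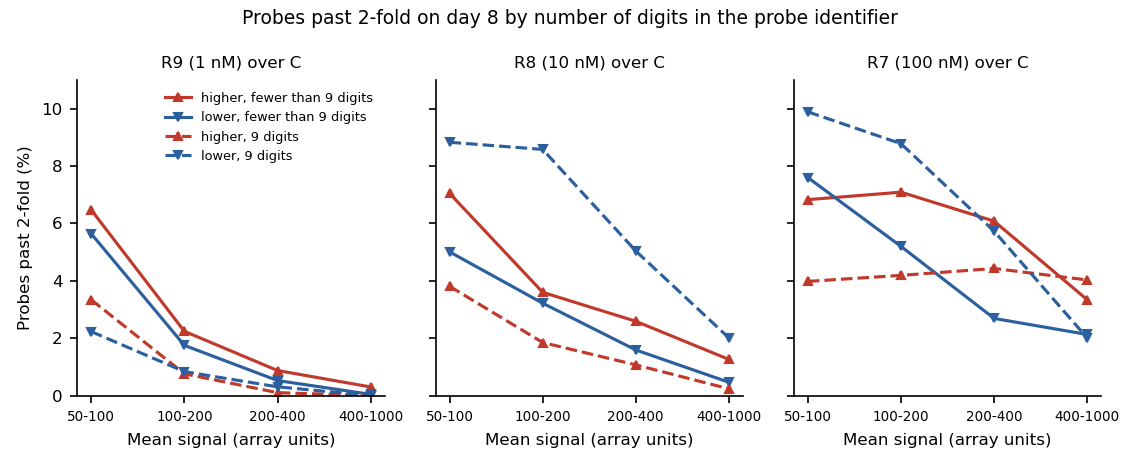
Share of probes (%) at least 2-fold higher (red) or lower (blue) than C by mean signal (array units) for R9, R8 and R7, 1 array a condition; dashed lines are probes with 9-digit identifiers and solid lines the others. In R8 the dashed blue line runs from 8.83% at 50 to 100 down to 2.01% at 400 to 1000, above the other 3 lines throughout.

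Second probes give a check within the same arrays, though not on other samples. Of 196 genes at least 2-fold higher that have a second probe, 89 had a difference on it, which was above 0 for 63 and past 2-fold for 20, with 1 past 2-fold lower. Of 140 genes at least 2-fold lower, 74 had one, below 0 for 54 and past 2-fold for 18, with 1 higher. Among the other genes, 2.86% of 4121 second probes were 2-fold higher and 4.78% lower, while 2175 were above 0 and 1946 below. By gene length in RefSeq, genes lower with R8 had a median of 33.1 kb against 21.1 kb for all genes with a difference, and genes higher had 21.0 kb. The share of lower genes was 1.64% in the shortest of 5 equal groups and 2.93% in the longest, and the share of higher genes 3.55% and 3.79%. Whether length and probe numbering go together was not tested.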

How the data were processed

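RNA of 9 conditions of 1 mESC line was measured on Illumina MouseWG-6 BeadChips with 46643 probes, 1 array a condition. The deposited log2 values were made by the authors with median centering in GeneSpring GX. Tested on the file, each equals log2 signal minus a constant per array and a baseline per probe, and signals were recovered from the steps between arrays, approximately for 2.45% of probes, with the lowest level put at 5.0. The absolute unit is not known from the files. A table of signals with 9 sample columns was not used, since their names match no sample label.

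Detection was set at 29.1, taken as the 0.99 quantile of background probes (the median of the 9 arrays), and background probes were those at the lowest level on at least 6 of the other 8 arrays. Arrays were scaled to the median of 16146 probes detected on all 9. Where a gene had several probes, the brightest by mean log2 signal over 8 arrays was used. Of the probes, 32794 had 1 symbol, 55 several and 13794 none. RefSeq tables of GRCm38.p6 gave current symbols (32722 probes matched by gene identifier, 11 by accession), gene lengths and promoters. A bound compares the detected signal with the detection level of the other array, and where it was under 0 no difference is given. The number of arrays, 1 a side, limits the precision. Alternatives were 4 other scalings, 3 detection levels, 2 probe choices, folds of 1.5 and 3, and all probes. Leaving out probes with 9-digit identifiers was chosen after seeing the data. The steps were tested on simulated data, in python 3.11.15 with numpy 2.4.6, pandas 2.3.3 and matplotlib 3.10.9.

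Members and lists were chosen with earlier results of these data known. Named were the 4 markers, the 15 largest increases and decreases among genes detected on both arrays, the 5 largest bounds in each direction, up to 4 members past 2-fold in each direction of each list, any gene of the RA lists and the study's 3 sets. Other list members, *Enkd1*, *Spata9* and the genes under other observations were named after their values were seen.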

Additional observations from a re-analysis of the deposited data

Results flagged for a closer look

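For 8 of the genes named, the R8 array lay on opposite sides of C on DoD 8 and on the last stage, day 29 in the sample labels and a later day in the paper, by at least 2-fold each time. With 1 array a condition the difference between the stages was not tested. The 99th percentile of background signal on the last stage was 32.2 in C and 56.0 in R8, so the values under 100 there are near background.

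*Pth1r*, the receptor of parathyroid hormone-related protein, was higher in R8 on DoD 8 (2.70) and lower on day 29 (-1.46, from 11195 in C to 4082 in R8). *Pla2g12b*, at least 2.93 on DoD 8, was at -1.40 on day 29, with 1723 in C and 655 in R8. *Stra6*, the retinol uptake receptor, was at least 2.26 and then -1.22, with 373 in C and 160.5 in R8. *Cubn*, the endocytic receptor cubilin, was at least 2.65 and then -1.92, with 177 in C and 46.9 in R8, and since the R8 signal was under that array's background percentile the size on day 29 is not settled. *Hoxd9* was at 1.72 and then -2.07, and *Actg2*, enteric actin, at 1.91 and then -2.28, with 300.4 in C and 61.8 in R8. In the other direction, *Gabbr1* was at -2.03 on DoD 8 and 1.55 on day 29, and *Cfap52* at -1.83 and 1.64, both with C near background on day 29 (33.6 and 32.6), which leaves the size there unsettled too.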

How the results depend on the processing

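No paired analysis was possible because each condition has 1 array. The 4 other scalings kept every count within 1.5 times and every list median and named gene within the yardstick. The fold and the detection level moved the counts. At the 0.95 quantile of background (13.5) 919 genes were higher and 657 lower, at a signal of 50 these were 226 and 137, and at 100 they were 106 and 71. *Foxa2* was then 3.19, at least 1.75 and at least 0.73, and *Cyp26a1* at least 1.86 at a level of 100 and 1.75 as the mean of its probes. A fold of 1.5 gave 1214 higher and 939 lower, and a fold of 3 gave 116 and 30, with 79.45% of them higher. All probes gave 738 and 951 (43.69% higher), and genes on probes with fewer than 9 digits gave 336 and 171. The neuron list median turned to -0.01 at a detection level of 100, and *Mindy3* to 0.55 on the probe brightest in C and R8. Other list medians near 0 also changed sign, among them endothelium (-0.22 to 0.21), blood (-0.2 to 0.2), smooth muscle (-0.11 to 0.16) and epiblast (-0.09 to 0.16). The forebrain and midbrain median ran from 0.04 to 0.42. Over all alternatives, 340 list medians stayed within the yardstick and 10 moved, and for named genes these were 663 and 105. Those under a signal of about 100 rest on the detection level.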

Other observations

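Long noncoding RNAs outside the lists varied in both directions. *Neat1*, which builds nuclear paraspeckles, had scaled signals of 2246 in C and 1282 in R8, a log2 difference of -0.81, with -0.28 in R9 and -0.82 in R7. *Miat*, a noncoding RNA of neural and cardiac tissue, was higher, with 74.9 in C and 276.4 in R8, a difference of 1.88. *Tug1* was at -0.04.

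*Fbxw5*, whose C signal on DoD 8 stood apart, also spanned a wide range on the last stage, with 308 in C, 354 in R8 and 2409.8 in R7.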
